A study of Mus musculus with 36 samples.

Results

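The 5 probe sets described here are rows of a mouse expression array that carry no single gene symbol and whose values were higher in modafinil-treated mice, and they were taken by their identifiers from 45037 probe sets in all, controls left out. The platform annotation lists 2 genes for each of 3 of them. Probe set 1449009_at reads Tgtp2 (Entrez 100039796) and Tgtp1 (21822), 1429184_at reads Gm4070 (100042856) and Gvin1 (74558), and 1421571_a_at reads Ly6c2 (100041546) and Ly6c1 (17067). The other 2, 1438027_at and 1417185_at, are not listed in the annotation used here and are called by their identifiers, so "multi-gene" holds for 3 of the 5. On the array, 932 probe sets list several symbols and 9160 list none. The members were chosen by their modafinil minus vehicle difference in these arrays, so their differences between modafinil and vehicle are given as a description and not as a finding.

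Messenger RNA was measured on 36 single-colour Affymetrix arrays from male C57B1/6J mice of 20 to 26 g, and values are on the log2 scale, so a difference of 1 is a doubling. Modafinil keeps people awake and acts on dopamine reuptake. In a place conditioning schedule that ran over days 3 to 10, modafinil mice were given 65 mg per kg and vehicle mice saline. All mice had saline on every other day of it, were tested on day 11 and were killed 24 h past their final injection. Tissue punches of 1 mm from slices of 100 µm were taken from the ventral tegmental area (VTA, 5 modafinil and 5 vehicle arrays), the nucleus accumbens (NAC, 5 and 5) and the prefrontal cortex (PFC, 8 and 8). RNA from the pieces of a sample was pooled where its quality allowed. The labels do not say that the arrays of a group came from separate mice, so p-values measure the spread between these samples, and the number of arrays limits the precision. A punch holds many cell types, so more cells of a type and more RNA per cell cannot be told apart in any result below.

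Interferon gamma is a cytokine made mainly by T cells and natural killer cells. Its receptor acts through Jak kinases and STAT transcription factors, which bind GAS elements in DNA, while ISRE elements are bound by interferon regulatory factors. Among the genes it induces in mice are large families of GTPases that attack the vacuoles of intracellular pathogens. Tgtp1 and Tgtp2 encode immunity-related GTPases, and Gvin1 encodes a very large interferon-inducible GTPase. Ly6c1 and Ly6c2 encode small proteins tied to the cell surface by a lipid anchor, and Ly6C is used as a marker of inflammatory monocytes and is also found on endothelial cells. In the mouse such genes lie in clusters of close copies.

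The paired genes are neighbours, and 1 probe set reads both, so its signal cannot be divided between them. In RefSeq (GRCm38.p6) Tgtp1 and Tgtp2 lie on chromosome 11 with 2 genes between them, Gm4070 and Gvin1 on chromosome 7 with 3 between them, and Ly6c1 and Ly6c2 on chromosome 15 with 2 between them. No other probe set of the array lists any of the 6 genes, so no second reading of them exists here. Promoter sequences of RefSeq matched 4 of the 6, and the 150 bases before the first listed start are shown for these because 1 probe set reads both genes of a pair. Capitals mark a GAS match (TTCNNNGAA) or an ISRE match (GAAA, 2 bases of any kind, then GAAA again), each searched on both strands without overlap between them.
Tgtp1 (chr11:48992247-48992396, minus strand): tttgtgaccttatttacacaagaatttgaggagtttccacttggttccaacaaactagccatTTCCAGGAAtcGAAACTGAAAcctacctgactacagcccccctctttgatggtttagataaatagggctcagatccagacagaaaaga
Tgtp2 (chr11:49064213-49064362, minus strand): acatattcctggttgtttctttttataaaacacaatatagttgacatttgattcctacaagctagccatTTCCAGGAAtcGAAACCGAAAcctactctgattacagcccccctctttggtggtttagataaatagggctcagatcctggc
Ly6c1 (chr15:75048838-75048987, minus strand): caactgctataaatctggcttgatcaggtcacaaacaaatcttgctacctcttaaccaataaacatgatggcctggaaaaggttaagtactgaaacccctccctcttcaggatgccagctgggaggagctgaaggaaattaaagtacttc
Ly6c2 (chr15:75111972-75112121, minus strand): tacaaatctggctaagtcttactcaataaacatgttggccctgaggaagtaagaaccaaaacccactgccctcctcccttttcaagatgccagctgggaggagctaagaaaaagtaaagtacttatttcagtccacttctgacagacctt

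Each Tgtp promoter held 1 GAS match and 1 ISRE match. The GAS match starts 88 bases before the start of Tgtp1 and 81 bases before that of Tgtp2, with the same letters in both. The ISRE matches start 77 and 70 bases before the start. In windows of 300 bases around 32851 starts, the GAS letters were found in 8.3 percent, the ISRE letters in 3.44 percent and both in 0.454 percent. The windows of Ly6c1 and Ly6c2 held neither motif at either of their 2 listed starts, which says only that these letters are not in these windows. In a global alignment of the 150 bases, 71.6 percent of positions were identical between Tgtp1 and Tgtp2 and 52.2 percent between Ly6c1 and Ly6c2, against 46.3 percent between Tgtp1 and Ly6c1.

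The GTPase pair Tgtp1 and Tgtp2 showed the largest differences of the 5 probe sets in each region. In VTA 1449009_at had values of 10.28, 10.20, 7.01, 10.25 and 10.26 in modafinil arrays 1 to 5, against 6.99, 8.13, 7.37, 6.70 and 7.08 in vehicle arrays 1 to 5. Modafinil arrays 1, 2, 4 and 5 lay within 0.1 of each other and above every vehicle array, while array 3 lay inside the vehicle range. In NAC it had 10.04, 9.77, 8.60, 6.42 and 10.17 in modafinil arrays, against 6.77, 7.10, 7.05, 7.09 and 6.69 in vehicle arrays. Here array 4 was below every vehicle array and array 3 was intermediate. In PFC the lowest, median and highest values were 7.39, 10.38 and 11.15 in modafinil arrays, against 7.19, 7.67 and 8.01 in vehicle arrays, with array 6 inside the vehicle range. The modafinil minus vehicle difference was 2.35 in VTA (SE 0.559, 5.09-fold), 2.06 in NAC (SE 0.575, 4.17-fold) and 2.41 in PFC (SE 0.385, 5.30-fold).

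The probe set of Gm4070 and Gvin1 showed the same arrays high and low. In VTA 1429184_at had 9.62, 9.54, 7.73, 9.48 and 9.37 in modafinil arrays, against 7.63, 8.65, 7.82, 7.57 and 7.93 in vehicle arrays. In NAC it had 9.51, 9.23, 8.16, 7.50 and 9.41 in modafinil arrays, against 7.40, 7.68, 7.41, 7.60 and 7.60 in vehicle arrays. VTA array 3 and NAC array 4 both lay inside the vehicle range on this probe set. In PFC the lowest, median and highest were 7.97, 9.52 and 9.85 in modafinil arrays, against 7.92, 8.12 and 8.43 in vehicle arrays. The difference was 1.23 in VTA (SE 0.330), 1.23 in NAC (SE 0.330) and 1.27 in PFC (SE 0.195), a fold of 2.34, 2.34 and 2.41. Vehicle VTA array 2 was the highest vehicle array of its region on both GTPase probe sets, at 8.13 on 1449009_at and 8.65 on 1429184_at.

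The surface protein pair Ly6c1 and Ly6c2 differed less in size, with tight vehicle groups. In VTA 1421571_a_at had 11.11, 11.04, 10.10, 10.97 and 10.87 in modafinil arrays, against 10.00, 10.14, 10.09, 9.94 and 10.06 in vehicle arrays. In NAC it had 10.73, 10.47, 9.68, 9.50 and 10.29 in modafinil arrays, against 9.31, 9.37, 9.49, 9.34 and 9.49 in vehicle arrays. In NAC the groups did not overlap, but array 4 lay only just above the highest vehicle array. In PFC the lowest, median and highest were 10.06, 11.04 and 11.62 in modafinil arrays, against 9.82, 10.07 and 10.22 in vehicle arrays. The difference was 0.77 in VTA (SE 0.159, 1.71-fold), 0.73 in NAC (SE 0.199, 1.66-fold) and 0.87 in PFC (SE 0.177, 1.82-fold).

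The 2 probe sets without a listed gene followed the same arrays. In VTA 1438027_at had 8.52, 7.67, 6.40, 8.45 and 8.18 in modafinil arrays, against 6.53, 6.73, 6.56, 6.16 and 6.46 in vehicle arrays. In NAC it had 7.40, 7.40, 6.07, 6.07 and 7.58 in modafinil arrays, against 5.59, 6.00, 6.08, 5.83 and 5.88 in vehicle arrays, so arrays 3 and 4 both lay inside the vehicle range there. Its PFC values ran from 7.09 over a median of 8.56 to 9.06 in modafinil arrays, against 6.76, 6.97 and 7.25 in vehicle arrays. The difference was 1.35 in VTA (SE 0.327), 1.03 in NAC (SE 0.291) and 1.32 in PFC (SE 0.245).

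Probe set 1417185_at had 10.98, 10.77, 9.57, 10.83 and 10.77 in modafinil VTA arrays, against 9.64, 9.76, 9.76, 9.47 and 9.65 in vehicle VTA arrays. In NAC it had 10.91, 10.81, 9.65, 9.30 and 10.53 in modafinil arrays, against 9.15, 9.29, 9.39, 9.15 and 9.36 in vehicle arrays. Array 4 of NAC, array 3 of VTA and array 6 of PFC were the modafinil arrays inside the vehicle range of their region. In PFC the lowest, median and highest were 9.62, 10.89 and 11.56 in modafinil arrays, against 9.40, 9.68 and 9.90 in vehicle arrays. The difference was 0.93 in VTA (SE 0.216), 0.97 in NAC (SE 0.270) and 1.08 in PFC (SE 0.208).

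**Figure D1:**
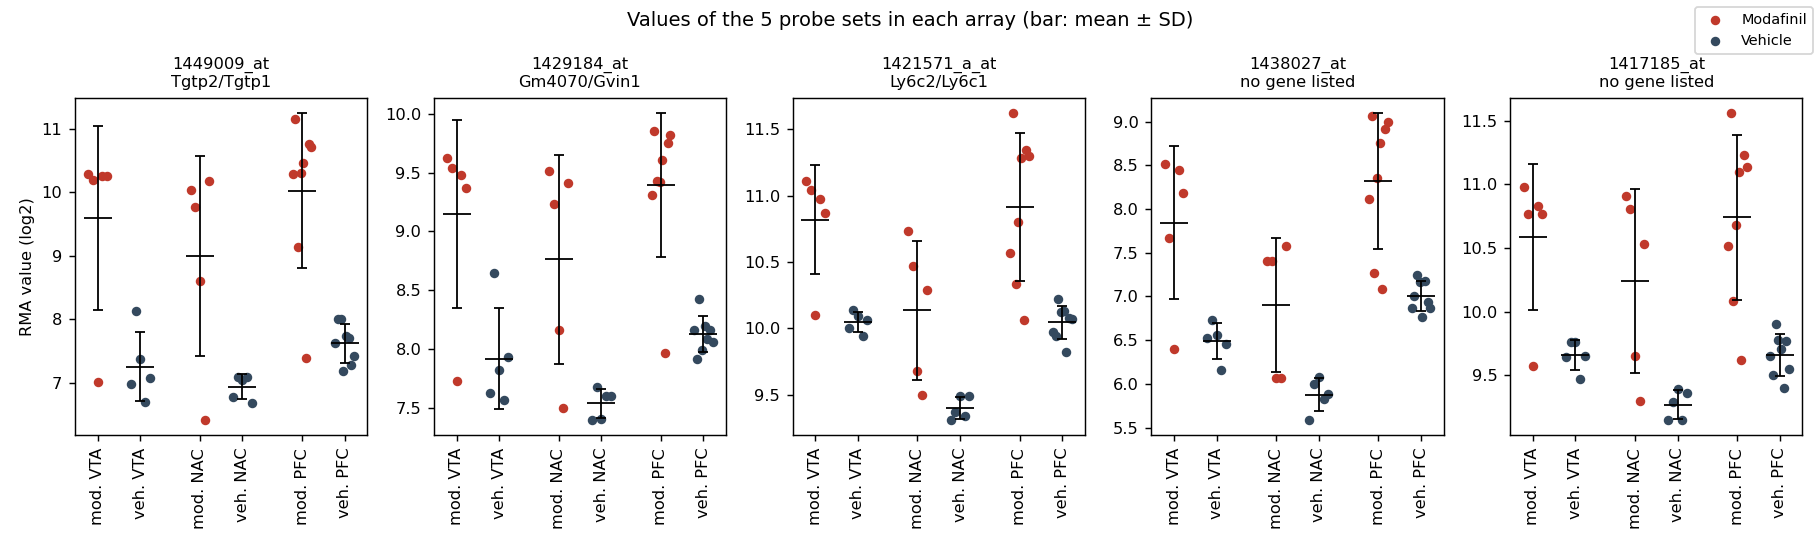
RMA values (log2) of the 5 probe sets in every array, with modafinil arrays in red and vehicle arrays in dark blue for each region, and bars for the mean ± SD of a group. For 1449009_at in VTA, 4 modafinil arrays sit between 10.20 and 10.28 and array 3 sits at 7.01 among the vehicle arrays.

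**Figure D2:**
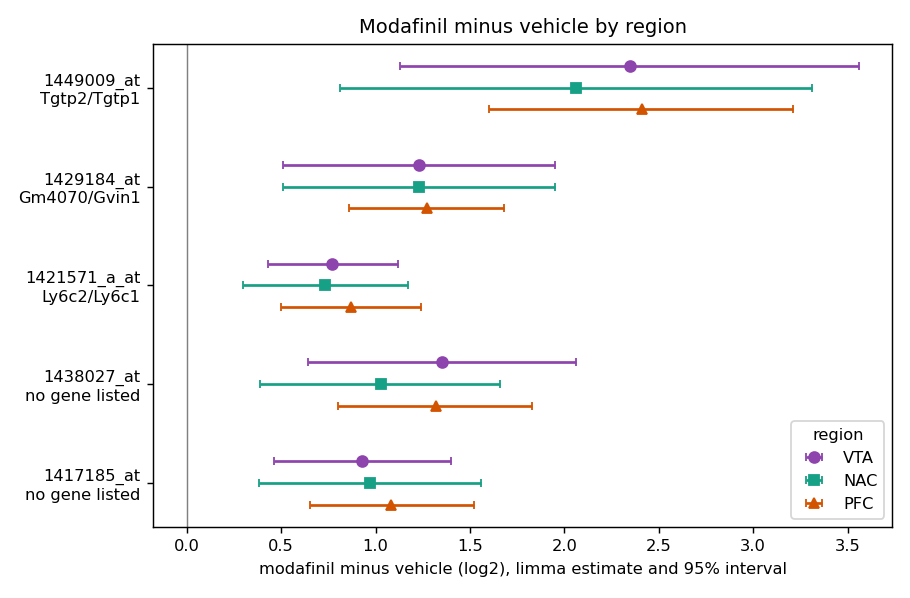
Modafinil minus vehicle (log2, limma estimate with its 95% interval) for each probe set in VTA, NAC and PFC. The 3 regions lie close together for each probe set, and the largest differences are those of 1449009_at, at 2.35, 2.06 and 2.41.

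With limma's moderated test over 27022 probe sets in each region and Benjamini-Hochberg adjustment (threshold 0.05), all 5 probe sets passed the filter on dim values in every modafinil comparison. In VTA 0 of 5 were past the threshold as higher, where 0.189 percent of all probe sets were, and 5 of 5 had an unadjusted p under 0.05, where 6.84 percent of all did so as higher. Without modafinil VTA array 3 the count was 5 of 5, with 112 of all 27022 probe sets called higher there, against 51 with all 10 arrays. It was 0 without any other single VTA array, and 0 of all probe sets were called without vehicle array 1, 2 or 3 or modafinil array 4, so those counts are not about the members. In NAC 0 of 5 passed, where 0 percent of all did, with 5 of 5 at an unadjusted p under 0.05 (1.14 percent of all as higher), and without modafinil array 4 the count was 1, which was also the only call among all probe sets. In PFC 2 of 5 passed (1449009_at and 1429184_at), where 0.0444 percent of all did, and 5 of 5 had an unadjusted p under 0.05 (3.63 percent of all as higher). In PFC, dropping modafinil array 3 or 6 gave 5, with 45 and 54 of all probe sets called higher, against 12 with all 16 arrays; dropping any of the other 6 modafinil arrays gave 0, and dropping a vehicle array gave 0 for arrays 1, 3, 6, 7 and 8 and 2 for arrays 2, 4 and 5. Wherever the PFC count was 0, 0 of all probe sets were called. The count was 0 of 5, and 0 of all, with the replicate number as a block. Over all 36 arrays with region as a factor 5 of 5 passed, where 0.444 percent of all did, and 5 of 5 passed without any single array. The differences over the regions were 2.29 for 1449009_at (SE 0.305), 1.25 for 1429184_at (SE 0.168), 0.80 for 1421571_a_at (SE 0.113), 1.25 for 1438027_at (SE 0.177) and 1.01 for 1417185_at (SE 0.143). The choice of the members used these contrasts, so nothing is read from these counts. The median difference of the 5 was 1.23 in VTA, 1.03 in NAC and 1.27 in PFC, beside −0.047, −0.015 and −0.028 over all probe sets tested.

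Whether the modafinil difference itself varied between regions was tested in 1 fit of the 6 group means. With limma 0 of 5 probe sets passed for VTA minus NAC, VTA minus PFC or NAC minus PFC, where 0.274, 0.903 and 0 percent of all probe sets passed in either direction. An unadjusted p under 0.05 was held by 0 of 5 in each, where 3034, 3266 and 1328 of all 27022 probe sets had one. Both counts are near the background, so they are not about the members. The estimates for the 5 had medians of 0.04, −0.06 and −0.13. The intervals were wide, so similar sizes are not shown. For 1449009_at the difference for VTA minus NAC was 0.29 with a 95% interval from −1.41 to 1.98, and for 1421571_a_at it was 0.04 with an interval from −0.59 to 0.67.

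The modafinil arrays were not alike. On all 5 probe sets, 14 of 18 modafinil arrays exceeded every vehicle array of the same region. In 2 arrays, VTA 3 and PFC 6, none of the 5 did. In NAC array 3 this held for 4 of the 5 probe sets, and in NAC array 4 for 1. Against the vehicle mean of the region, the 5 probe sets ranged from −0.24 to 0.05 in VTA array 3, from −0.52 to 0.19 in NAC array 4 and from −0.23 to 0.09 in PFC array 6. NAC array 3 ran from 0.19 to 1.66 and PFC array 3 from 0.27 to 1.52. In PFC array 3, 1429184_at was 1.30 above the vehicle mean, as high as in array 4 and above array 1 (1.18), while 1449009_at was 1.52 above it, under the 2.67 to 3.53 of the other raised PFC arrays, and the other 3 probe sets were 0.27 to 0.42 above it. PFC array 2 was the highest modafinil array of its region on each of the 5.

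In VTA, for each of the 5 probe sets, 4 of 5 modafinil arrays exceeded every vehicle array, as at least 4 of 5 did for 4.87 percent of all probe sets tested there. In NAC this number was 5 of 5 for 1421571_a_at (0.17 percent of all), 4 of 5 for 3 probe sets (1.51 percent of all had at least 4) and 3 of 5 for 1438027_at (8.4 percent of all had at least 3). In PFC it was 7 of 8 for each of the 5, as at least 7 of 8 held for 0.226 percent of all. The SD over modafinil arrays was 1.83 to 5.15 times that over vehicle arrays in VTA, 4.05 to 8.18 times in NAC and 3.90 to 4.46 times in PFC, where the median over all probe sets was 1.04, 1.26 and 1.17. A ratio at or above that of the lowest member was held by 18.5 percent of all probe sets in VTA, 3.67 percent in NAC and 0.633 percent in PFC.

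**Figure D3:**
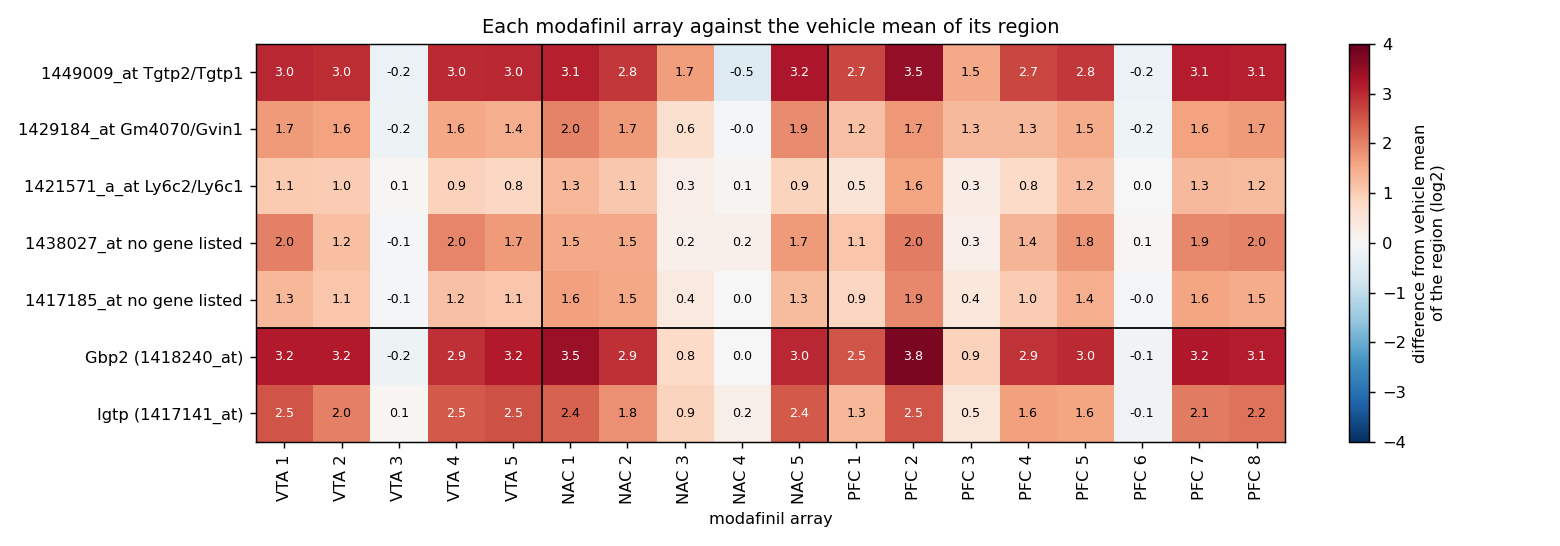
Difference of each modafinil array from the vehicle mean of its region (log2) for the 5 probe sets and, below the line, for the interferon-induced genes Gbp2 and Igtp. VTA array 3, NAC array 4 and PFC array 6 lie between −0.52 and 0.24 in every row, and NAC array 3 and PFC array 3 are below the other raised arrays of their region in most rows.

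The arrays that were low on these probe sets were also low on other interferon-induced GTPase genes. Gbp2, a guanylate-binding protein gene, was −0.20 from the vehicle mean in VTA array 3, 0.01 in NAC array 4 and −0.13 in PFC array 6. It was 0.77 in NAC array 3 and 0.93 in PFC array 3, and 2.53 to 3.78 in the other 13 modafinil arrays. Igtp, an immunity-related GTPase gene, was 0.09, 0.24 and −0.13 in the 3 low arrays. It was 0.89 in NAC array 3 and 0.49 in PFC array 3, and 1.34 to 2.55 in the other 13 modafinil arrays. In NAC array 4 its value of 7.27 still lay above the highest vehicle NAC array, at 7.09. In vehicle mice 9 of 10 dopamine neuron markers were called lower in NAC than in VTA (median −2.75), as the labels have it. Striatal neuron markers were called higher in NAC for 10 of 10 (median 2.84), also as labelled. Cortical excitatory neuron markers were called higher in NAC too, for 5 of 7 tested (median 1.78). No such check was made of the PFC label. Some of the low or intermediate modafinil arrays stood apart on region markers. Striatal neuron markers were at 10.67 and 10.24 in NAC arrays 3 and 4, where the other modafinil NAC arrays had 11.20 to 11.60 and the vehicle NAC arrays 10.69 to 11.65. They were at 10.49 in PFC array 3, where the other modafinil PFC arrays had 8.44 to 8.80 and the vehicle PFC arrays 8.47 to 8.71. Dopamine neuron markers in VTA were at 8.11 in modafinil array 3, 7.49 to 9.02 in the other modafinil arrays and 8.51 to 10.13 in vehicle arrays. The part of dissection in the members' values was not tested.

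The 5 probe sets varied together from array to array. After each group's mean was removed, the 10 pairs had a Pearson correlation of 0.88 to 0.99 over the 18 modafinil arrays (median 0.93) and a Spearman correlation of 0.82 to 0.97. Without the 2 arrays farthest from the median, Pearson's r ran from 0.78 to 0.98. The low arrays form a separate set, and over the 14 modafinil arrays above the vehicle range on all 5, r ran from 0.66 to 0.98 (median 0.83). These 14 were picked by the members' own values, and their deviations are from the means of the full groups, low arrays included. They also hold PFC array 3, so this r does not show how raised arrays alone vary together. Over the 18 vehicle arrays Pearson's r ran from 0.19 to 0.91 (median 0.47, Spearman 0.07 to 0.88), and from −0.09 to 0.85 without the 2 farthest arrays. The closest pair in both treatments was 1421571_a_at with 1417185_at, at 0.99 in modafinil arrays and 0.91 in vehicle arrays. The 2 GTPase probe sets, 1449009_at with 1429184_at, had 0.96 in modafinil arrays and 0.74 in vehicle arrays, but 0.34 in vehicle arrays without the 2 farthest arrays and 0.76 over the 14 modafinil arrays, so their place among the pairs rests on few arrays. In vehicle arrays the pair 1449009_at and 1421571_a_at had 0.21 and the pair 1449009_at and 1417185_at 0.19. These correlations describe arrays that share labelling and normalization, and no p is given.

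**Figure D4:**
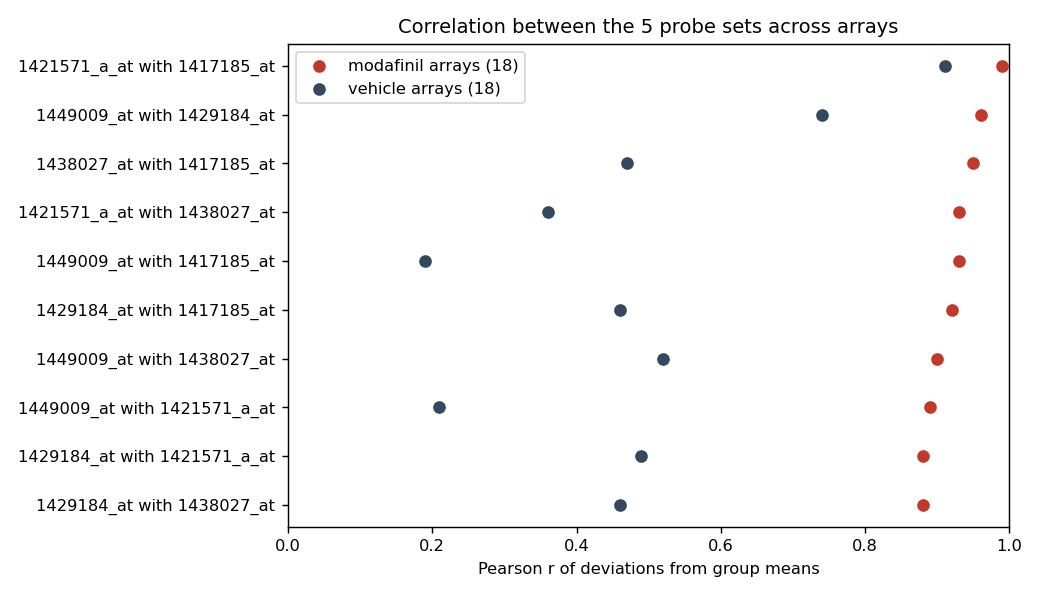
Pearson correlation of deviations from group means for the 10 pairs of probe sets, over 18 modafinil arrays (red) and 18 vehicle arrays (dark blue). Pairs lie between 0.88 and 0.99 in modafinil arrays and between 0.19 and 0.91 in vehicle arrays, and 1421571_a_at with 1417185_at is highest in both.

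The probe sets most like each member were taken from 22627 probe sets with 1 gene symbol, by the same correlation over 36 arrays. For the Tgtp pair they were Iigp1 (0.96) and Irgm2 (0.95), both immunity-related GTPase genes, and Gbp2 (0.94). For the Gvin1 pair they were Irgm2 (0.93), the interferon-induced transcript AW112010 (0.92) and Iigp1 (0.91). For the Ly6c pair they were B2m (0.94 and 0.93 for its 2 probe sets), which encodes the light chain of class I antigen presenting molecules, and Cd274 (0.93), which encodes the inhibitory ligand PD-L1. For 1438027_at they were Gbp2 (0.95), Gbp6 (0.94) and Cd274 (0.94), and for 1417185_at B2m (0.96 and 0.95) and Gbp2 (0.96). Spearman's rho for these 15 was 0.78 to 0.92, and r without the 2 farthest arrays 0.83 to 0.93. Over vehicle arrays alone they ran from 0.02 (1438027_at with Cd274) to 0.84 (1429184_at with AW112010).

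A level difference between regions in vehicle mice, which the choice of members did not use, was tested between NAC and VTA. The filter kept 4 of the 5 probe sets. With limma, 1421571_a_at (Ly6c1 and Ly6c2) was lower in NAC, at 9.40 ± 0.08 in NAC and 10.05 ± 0.08 in VTA (SD, n = 5 each), a difference of −0.65 (SE 0.0619, adjusted p = 3.8e-06). Every NAC array lay below every VTA array. The share of all probe sets that separated in this way was not counted, so nothing is read from it. Probe set 1417185_at was also lower in NAC, at 9.27 ± 0.11 in NAC and 9.66 ± 0.12 in VTA, a difference of −0.39 (SE 0.0754, adjusted p = 0.000944). That call was lost when all 36 arrays shared 1 estimate of the spread, which left 1 of the 5 probe sets past the threshold (adjusted p = 0.239 for 1417185_at). For 1449009_at the difference was −0.31 (SE 0.218, adjusted p = 0.241) and for 1429184_at −0.39 (SE 0.172, adjusted p = 0.075), neither past the threshold with limma. With the replicate block 1429184_at was past it (adjusted p = 0.0337), as it was with arrayWeights (adjusted p = 0.0379) and without vehicle VTA array 4, and over its alternatives the adjusted p ran from 0.0337 to 0.323. Probe set 1438027_at was too dim for the filter, with 5.88 ± 0.19 in NAC and 6.49 ± 0.21 in VTA, and had a difference of −0.61 (adjusted p = 0.000621) where no filter was set. The 2 of 4 called stand beside 56.5 percent of all probe sets called in either direction, so their share is near the background. Of 18 endothelial markers tested, 11 were called lower in NAC, with Tek at −0.79 (SE 0.0734) and Ocln at −0.74 (SE 0.10), and their part in the Ly6c difference was not tested.

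Among genes related to the members, the interferon-induced GTPases had higher values in modafinil arrays for 9 of 9 tested genes in every region, with 13 of the list on the array. With limma 0 of 9 passed in VTA, 0 in NAC and 3 in PFC, namely Irgm2 (1.60, SE 0.269), Gbp2 (2.42, SE 0.415) and Gbp3 (1.18, SE 0.206), and 9 of 9 passed over the regions. The 3 PFC calls were lost with the replicate block, with trend and robust estimation and when any of the 11 single arrays was left out whose removal left 0 of all probe sets called. With the filter at the 60th percentile only 3 of all probe sets were called higher in PFC. Of these, 2 were members, so the 3 GTPase calls cannot all have been kept there. The median difference over the list was 1.76 in VTA, 1.38 in NAC and 1.60 in PFC. In vehicle mice 8 of 8 tested were called lower in NAC than in VTA, with Irgm1 at −0.57 (SE 0.0811) and Igtp at −0.44 (SE 0.0792). Of all probe sets, 56.5 percent were called between these regions in either direction, so a call here is common. The genes of interferon gamma signalling had 1 of 12 past the threshold in VTA, Stat2 (0.47, SE 0.075), 0 of 12 in NAC and 0 of 12 in PFC. The Stat2 call in VTA was lost with the replicate block, with no filter, and without vehicle array 1, 2 or 3 or modafinil array 4, where 0 of all probe sets were called. It was also lost without modafinil array 5, where 0 of all probe sets were called higher. Over the regions 3 of 12 were called higher, where 0.444 percent of all probe sets were. They were Irf1 (0.41, SE 0.083), Stat2 (0.25, SE 0.0524) and Irf9 (0.18, SE 0.0447), all transcription factor genes. Values over the regions were higher in modafinil arrays for 5 of 12 genes and lower for 7 (median −0.01). By region they were higher for 7 of 12 in VTA, 7 in NAC and 6 in PFC, with medians of 0.05, 0.01 and 0.02. These lists were written with earlier results of these data known, so their directions are no independent evidence.

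Other genes of the Ly6 family, most of which encode small surface proteins, were listed for comparison. With limma 0 of 13 passed in VTA, 0 of 15 in NAC, 0 of 15 in PFC and 0 of 14 over the regions, with median differences of 0.12, −0.03, 0.04 and 0.05. Values were higher in modafinil arrays for 11 of 13 in VTA, 7 of 15 in NAC, 12 of 15 in PFC and 13 of 14 over the regions. Lypd6 had 0.85 in VTA (SE 0.333). The smallest unadjusted p belonged to Lypd1 in VTA, with −0.29 (SE 0.0962), and in NAC, with −0.34 (SE 0.144), and to Ly6h in PFC, with 0.17 (SE 0.0843).

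Markers of cells that carry Ly6C or make interferon gamma were set beside these values. Endothelial markers had 0 of 18 tested genes past the threshold in VTA, 0 of 18 in NAC and 0 of 19 in PFC. Their level over 20 genes ran from 8.32 to 8.42 in modafinil VTA arrays, against 8.23 to 8.52 in vehicle VTA arrays. In NAC it ran from 8.09 to 8.25 in modafinil arrays, against 8.03 to 8.14 in vehicle arrays, and in PFC from 8.46 to 8.89 in modafinil arrays, against 8.45 to 8.84 in vehicle arrays. In VTA and PFC the groups overlapped widely. In NAC modafinil arrays 1, 2, 3 and 5 had 8.24, 8.20, 8.25 and 8.21, all above the highest vehicle array, and array 4, the array lowest on 1449009_at, had 8.09. In NAC 15 of 18 endothelial markers had higher values in modafinil arrays (median 0.07), and their part in the members' values was not tested. Microglia markers had 0 of 16 past the threshold in each region, with medians of 0.04, 0.02 and 0.03.

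Blood leukocyte markers, which include T cell, natural killer cell and monocyte genes, were mostly dim, and only 6 of 17 on the array passed the filter, with 0 of 6 past the threshold in each region. Their level over 17 genes ran from 5.51 to 5.74 in modafinil VTA arrays, against 5.38 to 5.51 in vehicle VTA arrays. In NAC it ran from 5.41 to 5.91 in modafinil arrays, against 5.45 to 5.67 in vehicle arrays, and in PFC from 6.13 to 6.37 in modafinil arrays, against 6.05 to 6.16 in vehicle arrays. NAC array 4, low on the members, was the lowest NAC array on this list, while VTA array 3, also low on the members, stood at 5.51, the same as modafinil array 5. Values were higher in modafinil arrays for 5 of 6 in VTA (median 0.10), 4 of 6 in NAC (median 0.02) and 5 of 6 in PFC (median 0.10). Prf1, which encodes perforin, had 0.43 in VTA (SE 0.103), not past the threshold. The part of blood cells in the members' values was not tested. Red blood cell genes had 0 of 2 tested past the threshold in VTA, 0 of 1 in NAC and 0 of 2 in PFC. Dopamine, striatal and cortical neuron markers had 0 past the threshold in the 3 regions, with 11 of 11 dopamine markers lower in modafinil VTA arrays (median −1.22). Striatal markers had higher values in modafinil PFC arrays for 8 of 8 tested (median 0.28), and lower values for 7 of 9 in VTA (median −0.18) and 9 of 10 in NAC (median −0.17). In PFC the level of this list was 1.88 above the vehicle mean in array 3, and −0.17 to 0.19 from it in the other modafinil arrays. In NAC it was −0.51 and −0.94 from the vehicle mean in arrays 3 and 4, and 0.02 to 0.42 above it in the others. These differences thus rest on few arrays in PFC and NAC. In NAC 7 of 9 cortical markers had higher values in modafinil arrays (median 0.15).

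**Figure D5:**
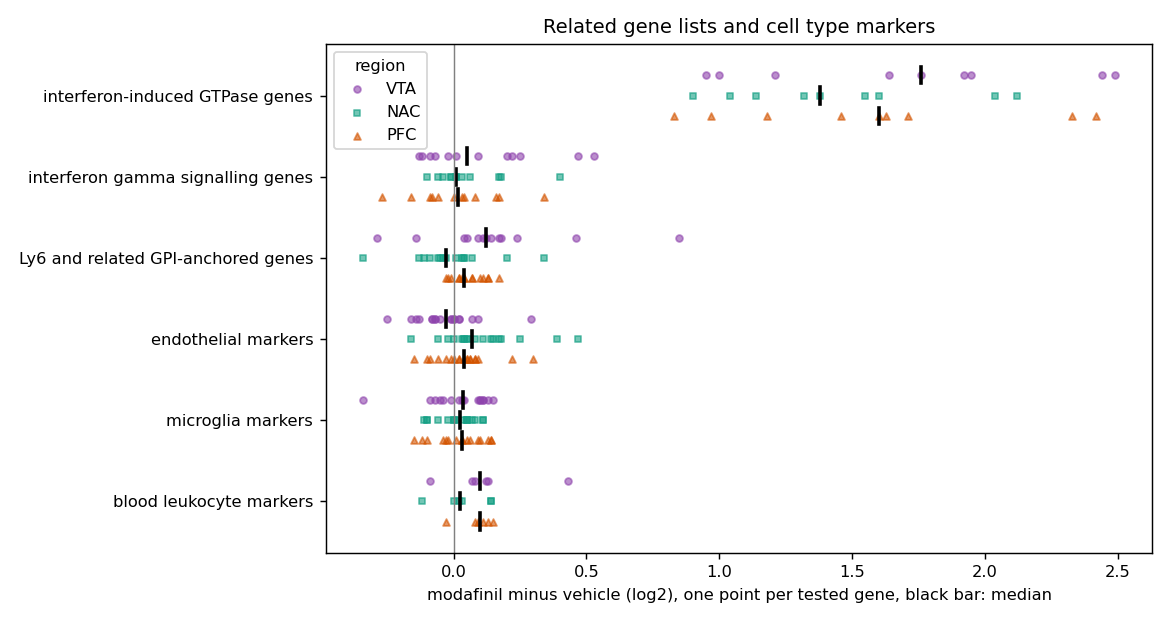
Modafinil minus vehicle (log2) for every tested gene of 6 lists in VTA, NAC and PFC, with a black bar at the median. All 9 interferon-induced GTPase genes lie right of 0 in each region with medians of 1.76, 1.38 and 1.60, while the medians of the other 5 lists lie between −0.03 and 0.12.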

How the data were processed

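The authors' deposited values were used as they stand, 36 arrays by 45101 probe sets, of which 64 controls were left out. Per the submitters' processing notes they were made with RMA, and the deposited values are on the log2 scale, as their range shows; version and annotation are not given in the sources used here. No 2 arrays were identical. In each comparison probe sets with a mean at or above the 40th percentile over the arrays of its fit were kept and tested with limma 3.58.1 (linear models with eBayes, R 4.3.3) under Benjamini-Hochberg adjustment. Array medians were 7.20 to 7.27 in PFC, against 6.76 to 6.81 in VTA and 6.79 to 6.90 in NAC, so levels were not set against PFC. Members and lists were chosen with earlier results of these data known. The lists held interferon-induced GTPase, interferon gamma signalling and Ly6 family genes and markers of endothelial cells, microglia, blood leukocytes, red blood cells and dopamine, striatal and cortical neurons. A gene was read from its single-symbol probe set with the highest mean. Named were the members, the 3 probe sets most like each, Gbp2 and Igtp, and up to 2 genes per list and direction by p, not all of which are printed. The fits were tested on simulated data. Promoters are from RefSeq, GRCm38.p6, aligned with Biopython 1.88. Raw intensities and scan dates were not analysed here.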

Additional observations from a re-analysis of the deposited data

Results flagged for a closer look

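Single arrays lay far from the others of their group in 5 of 30 groups of values (5 probe sets in 6 groups), where the gap to the next array, as a share of the group's range, passed Dixon's 95% critical value; chance gives about 1 in 20 for independent groups. The 5 probe sets vary together and 4 of the 5 cases are the same array, so they are not separate observations. In modafinil VTA arrays, array 3 was lowest at 7.01 on 1449009_at (next 10.20), at 7.73 on 1429184_at (next 9.37), at 10.10 on 1421571_a_at (next 10.87) and at 9.57 on 1417185_at (next 10.77). In modafinil PFC arrays, array 6 was lowest at 7.97 on 1429184_at (next 9.31). No vehicle array was marked on any of the 5 probe sets.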

How the results depend on the processing

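The 5 differences between modafinil and vehicle kept their sign in VTA, NAC and PFC and over the regions under every alternative tried. In VTA the 0 of 5 past the threshold became 1 of 4 tested with the filter at the 60th percentile, 5 with arrayWeights and 4 with all 36 arrays in 1 fit, while the calls as higher among all probe sets were 160, 355 and 455, against 51. In PFC the 2 of 5 became 0 with trend and robust estimation, 0 with the replicate block, 5 with arrayWeights and 5 with all 36 arrays in 1 fit, beside 0, 0, 51 and 25 among all probe sets, against 12. Leaving out 1 array gave 0 to 5 of 5 in VTA, 0 to 1 of 5 in NAC, 0 to 5 of 5 in PFC, 5 of 5 each time over the regions and 0 each time for the differences between regions; NAC against VTA in vehicle mice gave 2 to 3, and 1 with all 36 arrays in 1 fit. With 1 array left out, the median difference of the 5 ran from 1.11 to 1.58 (VTA), 0.90 to 1.24 (NAC) and 1.20 to 1.47 (PFC), and after quantile normalization it was 1.27, 1.05 and 1.31. The causes were not tested. The labels do not say that equal replicate numbers mark 1 mouse. Same-numbered modafinil and vehicle arrays deviated together (correlation above 0.1) in 1 of 5 pairs in VTA, 1 of 5 in NAC and 3 of 8 in PFC. Modafinil arrays correlated best with the vehicle array of their own number in 2 of 5, 0 of 5 and 1 of 8. These counts do not settle whether the numbers pair the arrays. For vehicle VTA and NAC arrays the correlation was above 0.1 in 1 of 5 pairs, though 4 of 5 arrays correlated best with their own number. For vehicle VTA and PFC arrays these counts were 0 of 5 and 4 of 5, and for vehicle NAC and PFC arrays 1 of 5 and 1 of 5. Modafinil arrays correlated best with their own number in 2 of 5 for each pair of regions. This is a hint from the data and not the design. Arrays of 1 mouse in several regions would not be independent in the fit over all 36 arrays. The block left the other member counts in the modafinil comparisons as they were, at 0 in VTA, 0 in NAC and 5 over the regions. Among all probe sets it took the VTA calls in either direction from 70 to 0, so the 0 in VTA is not about the members. In NAC 0 of all were called with or without it, and over the regions 246 were, against 227. For NAC against VTA in vehicle mice the block gave 3 members. Background correction and slide could not be varied from deposited RMA values.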
